A study of Homo sapiens with 36 samples.

Results

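The genes described here are 10 enzymes and enzyme partners of eicosanoid synthesis, chosen by name from the 27253 genes with a value above 0 in the deposited tables. They are PLA2G4A, PTGS1, PTGDS, HPGDS, PTGES, TBXAS1, ALOX5, ALOX5AP, LTA4H and LTC4S. The choice was made on their levels in 2 human acute myeloid leukaemia cell lines and on the change of those levels with the compound A9, with PTGDS high in one line and near 0 in the other. Levels between the lines are therefore given as a description without a test. The A9 contrast is named by the same choice, so each p-value is that of a single gene in a fit over all genes, and counts of members are not evidence about the list.

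Eicosanoids are lipid signals made from arachidonic acid, which cytosolic phospholipase A2 (PLA2G4A) cuts from membrane phospholipids. On the prostanoid branch, the cyclooxygenases make prostaglandin H2, and separate synthases turn it into prostaglandin D2 (PTGDS and HPGDS), prostaglandin E2 (PTGES) or thromboxane A2 (TBXAS1). On the leukotriene branch, 5-lipoxygenase (ALOX5) and its activating protein (ALOX5AP) make leukotriene A4, which LTA4H converts to leukotriene B4 and LTC4S to leukotriene C4. Monocytes, macrophages, granulocytes and mast cells are known producers of these lipids.

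The wild-type lines MOLM-13 and MONO-MAC-6 were exposed for 72 h to DMSO, the vehicle, or to A9, a PROTAC, which is a compound that brings a protein to the cell's degradation machinery. The design text names IKK2 and NR4A1 as its targets, and the series title names IKK1 and NR4A1. MOLM-13 received 0.125 µM of it and MONO-MAC-6 0.25 µM. Each of the 4 groups has 9 RNA sequencing libraries labelled by a first and a second number. The design text gives 3 samples per group, so libraries with the same first number, 3 at a time, were averaged to make 12 samples. The labels do not say whether samples came from separate cultures, so p-values measure only the spread between these samples, which may be technical. Each condition is 1 cell line at 1 dose, and cells of a given kind becoming rarer cannot be told apart from less RNA per cell.

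Values are TPM, a transcript abundance divided by transcript length and scaled to 1 total shared by all libraries, so levels of different genes can be compared. TPM hold no read counts, so the depth reached by each library is unknown, although the labels state 25000000 reads per sample. A change is given as a log2 fold change of TPM + 1, which understates changes of low genes. The test, limma, took genes whose mean reached 1 TPM in either group compared, and an adjusted p (Benjamini-Hochberg over all genes tested) under 0.05 was called. DMSO sample 1 of MONO-MAC-6 stood apart from the other 5 samples of that line on the first principal component, at 62.8 against -22.8 to 2.30. MONO-MAC-6 changes of tested members, AKR1C3 and TBXA2R that were called differently without it are given both ways. Changes of other single genes are given only with it included. The median log2 fold change of all genes was -0.046 for MOLM-13 and 0.16 for MONO-MAC-6. The MONO-MAC-6 changes of tested members, AKR1C3 and TBXA2R are therefore also given after median-ratio scaling of the samples. Scaling left the MONO-MAC-6 median at 0.020. Changes of other genes are given unscaled. Over all genes, 323 were called higher and 110 lower in MONO-MAC-6, and with scaling 353 and 210. With each sample's trend on transcript length removed the split was 638 and 557. The test of the difference between the lines gave 258 higher in MONO-MAC-6 and 143 lower, 293 and 229 with scaling, and 394 and 387 with the length trend removed.

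The labelled cell types were checked on marker genes. Of 8 monocytic myeloid genes, 5 reached a mean of 1 TPM in MOLM-13 with DMSO and 7 in MONO-MAC-6 with DMSO. CD33, a myeloid surface receptor, had 33.7 ± 1.90 and 28.4 ± 1.79 TPM (SD, n = 3) in these groups. CD14, the monocyte receptor for bacterial lipopolysaccharide, had a mean of 0.295 TPM in MOLM-13 and 3.14 TPM in MONO-MAC-6. ANPEP was at most 0.0382 TPM in any MOLM-13 sample. Means with DMSO in MOLM-13 and MONO-MAC-6 were 133 and 3413 TPM for LYZ. They were 6.73 and 2.98 TPM for ITGAM, which went the other way. The samples of FCGR1A (60.6 and 54.5 TPM), CD68 (38.4 and 52.5 TPM) and CSF1R (0.514 and 0.511 TPM) overlapped between the lines. The lymphoid gene NCAM1 had 37.1 ± 14.8 TPM (SD, n = 3) in MOLM-13 with DMSO and 0.398 ± 0.219 TPM (SD, n = 3) for MONO-MAC-6. The 5 megakaryocyte genes summed to at most 2.14 TPM in any sample, with PF4 and PPBP listed at 0 throughout, and the 5 erythroid genes to at most 8.80 TPM.

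The promoters of PTGDS and PTGES are shown first because both genes rose with A9 in MONO-MAC-6 and the start of their main coding transcript lies at the RefSeq start. Each is the 250 bases before that start from RefSeq (GRCh38.p14), written 5′ to 3′ on the strand of the gene. Capitals mark the match to the C/EBP motif described after the sequences.
PTGDS, chr9:136977254-136977503, plus strand: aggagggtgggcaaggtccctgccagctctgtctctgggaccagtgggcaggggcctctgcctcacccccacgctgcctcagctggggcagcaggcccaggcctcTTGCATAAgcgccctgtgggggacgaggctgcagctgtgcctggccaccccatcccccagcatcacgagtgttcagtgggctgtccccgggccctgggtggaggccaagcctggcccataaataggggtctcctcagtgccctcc
PTGES, chr9:129753043-129753292, minus strand: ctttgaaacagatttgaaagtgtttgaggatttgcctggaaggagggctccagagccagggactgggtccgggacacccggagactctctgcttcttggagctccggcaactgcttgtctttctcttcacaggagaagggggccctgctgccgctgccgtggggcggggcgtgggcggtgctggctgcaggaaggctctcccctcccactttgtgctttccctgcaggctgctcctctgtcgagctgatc
The main PTGDS transcript starts 1 base downstream of the RefSeq start, and its window holds 0 bases of annotated exons, although it lies inside the GENCODE span of the gene. The last 5 bases of the PTGES window are annotated as exon, since its coding transcript starts 5 bases upstream.

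Motifs were searched on both strands of all 35116 RefSeq promoter windows of that length. The C/EBP motif TTGCNNAA was found in 9.05% of all windows, and in PTGDS at bases -145 to -138 from the start. The NBRE, AAAGGTCA, the element known to bind NR4A1, was found in 1.05% of windows, and the NF-kB consensus in 5.21%. Neither was found in the windows of PTGDS or PTGES, or in those of the other 7 members with an entry. The PU.1 motif GAGGAAGT was found in 2.17% of windows, among them those of TBXAS1 and ALOX5AP. It occurs on both strands of each, at bases -151 to -144 and -230 to -223 in TBXAS1 and at bases -238 to -231 and -194 to -187 in ALOX5AP. The TATA box TATAAA, searched on the gene strand, was found in 6.80% of windows, among them those of TBXAS1 and HPGDS. It lies at bases -140 to -135 in TBXAS1 and at bases -28 to -23 in HPGDS. The TBXAS1 window holds the start of the gene's main MOLM-13 transcript. It lies far downstream of where the most abundant MONO-MAC-6 transcript of the gene starts. The ALOX5AP window is not shown: it lies 22023 bases upstream of the start of ALOX5AP-201, the transcript that held 99.9% of the gene's TPM in MONO-MAC-6 with DMSO.

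In MONO-MAC-6, 2 of the 10 genes held nearly all of the measured transcripts. ALOX5AP and PTGDS together made up 90.5% to 92.7% of the summed TPM of the members in the DMSO samples, where the sum was 818 to 856 TPM. With A9 they made up 95.4% to 96.0% of a sum of 1785 to 2122 TPM. In MOLM-13 with DMSO the sum was 71.7 to 81.1 TPM. LTA4H held 51.5% to 54.8% of it and PLA2G4A 22.8% to 27.2%, and PTGDS and ALOX5AP together 3.97% to 5.96%.

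**Figure D1:**
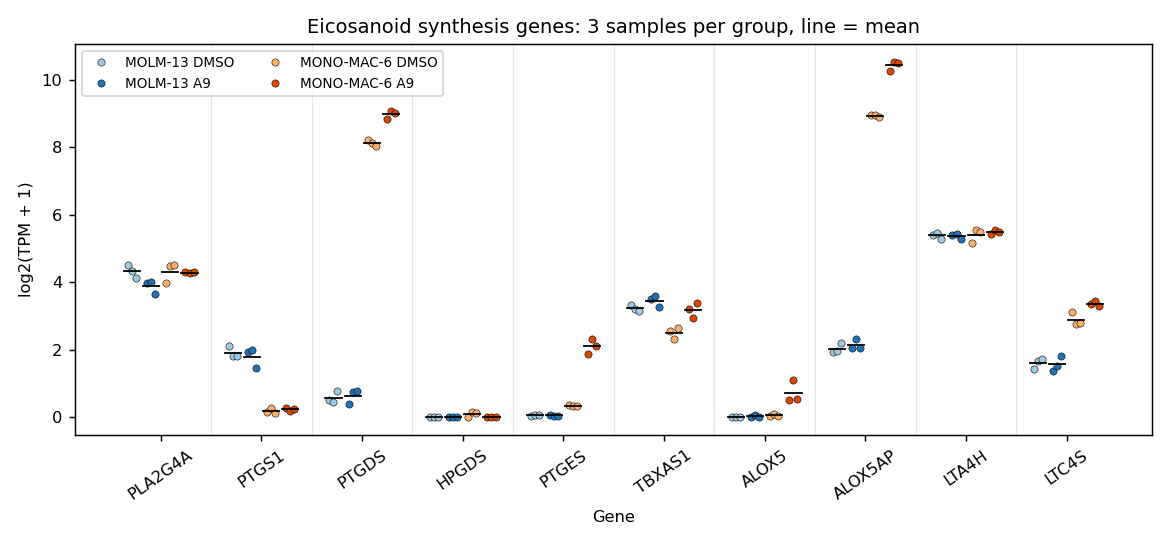
Level of each gene as log2(TPM + 1) on the vertical axis in the 3 samples of each group, ordered along the horizontal axis by role, with the group mean as a line. PTGDS and ALOX5AP of MONO-MAC-6 lie far above the same genes in MOLM-13, and LTA4H lies near 5.4 in all 4 groups.

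Between the DMSO groups, 7 members reached a mean of 1 TPM in either line. The MONO-MAC-6 samples lay wholly above the MOLM-13 samples for 3 of them (ALOX5AP, PTGDS and LTC4S), as they did for 34.9% of the 12922 genes that met the same minimum. They lay wholly below for 2 (TBXAS1 and PTGS1), as for 24.2% of those genes. PLA2G4A and LTA4H overlapped. PTGDS met the minimum only through MONO-MAC-6 and was chosen for that difference. PTGS1 met it only through MOLM-13, so both had to differ. The lines were deposited in separate tables, and no test was made of these levels.

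The order of levels in MONO-MAC-6 with DMSO was ALOX5AP, PTGDS, LTA4H, PLA2G4A, LTC4S, TBXAS1 and PTGES, and no sample of one of these genes overlapped the next. PTGS1, HPGDS and ALOX5 followed at means under 0.15 TPM and overlapped. In MOLM-13 with DMSO the order was LTA4H, PLA2G4A, TBXAS1, ALOX5AP, PTGS1, LTC4S, PTGDS, PTGES, ALOX5 and HPGDS. There ALOX5AP and PTGS1 overlapped, and so did ALOX5 and HPGDS.

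With A9 in MOLM-13, 6 members were tested and 0 were called in either direction by limma, against 0.0862% of the 11596 genes called higher and 0.0345% called lower. At an unadjusted p under 0.05 there was 1, PLA2G4A. In MONO-MAC-6, 7 members were tested and 3 were called higher (ALOX5AP, PTGDS and PTGES) and 0 lower, against 2.51% of the 12869 genes called higher and 0.855% called lower. PTGES met the minimum level only through the A9 group, so it had to differ. The A9 samples lay wholly above the DMSO samples for 5 of the 7 (those 3, TBXAS1 and LTC4S), as for 27.2% of all genes there, and wholly below for 0, as for 10.6%. In MOLM-13 they lay wholly above for 0 of the 6, where 8.59% of all genes did, and wholly below for 1, where 6.42% did.

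The effect of A9 was compared between the lines as an interaction over the 12 samples, in which line and dose cannot be told apart. Of 8 members tested, 3 had a higher effect in MONO-MAC-6 (ALOX5AP, PTGDS and PTGES) and 0 a lower one, against 1.92% and 1.07% of 13410 genes.

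**Figure D2:**
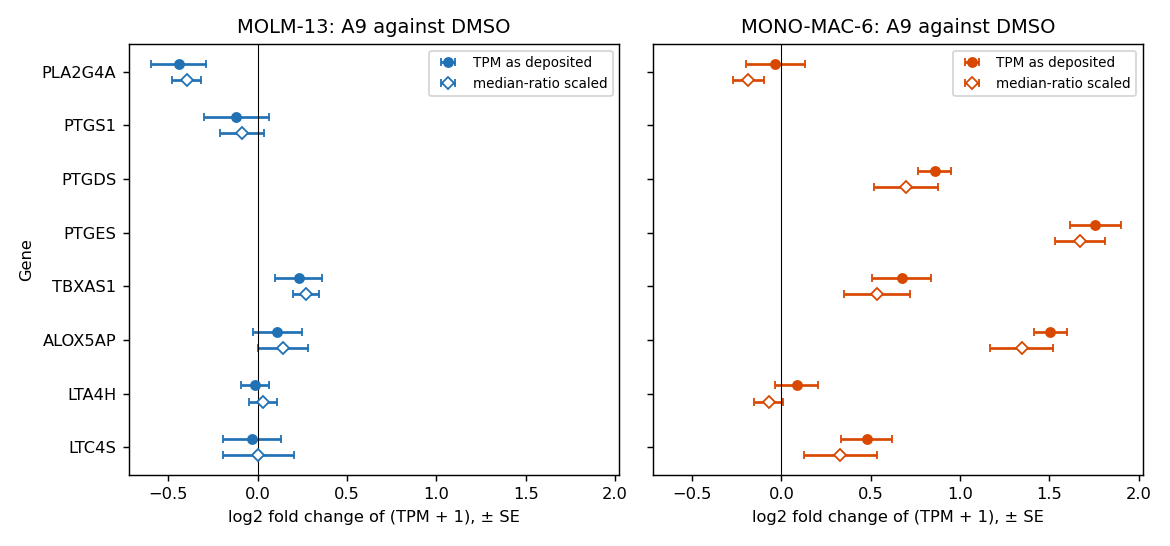
Log2 fold change of TPM + 1 with A9 against DMSO for each tested gene in MOLM-13 (left) and MONO-MAC-6 (right), with the standard error as bars, from TPM as deposited (filled) and after median-ratio scaling (open). ALOX5AP stands at 0.11 in MOLM-13 and at 1.51 in MONO-MAC-6.

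PLA2G4A (ENSG00000116711, GRCh38 chromosome 1, 186828953 to 186988981, plus strand) encodes the cytosolic phospholipase A2 that releases arachidonic acid. Its MOLM-13 DMSO samples had 22.0, 19.1 and 16.3 TPM, and its A9 samples 14.8, 15.1 and 11.6 TPM. All A9 samples were lower than all DMSO samples, with a log2 fold change of -0.44 (SE 0.15, adjusted p 0.498 by limma) that did not pass the threshold. It was called with the length trend removed, at -0.36 (adjusted p 0.0400 by limma). In MONO-MAC-6 the DMSO samples had 14.7, 21.5 and 21.7 TPM and the A9 samples 18.6, 18.3 and 18.7 TPM. DMSO sample 1 was the low one there, and the groups overlapped, with a log2 fold change of -0.033 (SE 0.17, adjusted p 0.908 by limma). Without DMSO sample 1 it was -0.21 (adjusted p 0.0325 by limma) and was called. With scaling and all samples it was -0.19 (adjusted p 0.260 by limma) and was not called.

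The cyclooxygenase PTGS1 (ENSG00000095303, chromosome 9, 122370530 to 122395703, plus strand), which makes prostaglandin H2, was the only cyclooxygenase of the lists above 1 TPM in a sample. Its MOLM-13 samples had 3.32, 2.49 and 2.54 TPM with DMSO and 2.80, 2.98 and 1.76 TPM with A9. The groups overlapped, and the log2 fold change of -0.12 did not pass the threshold (adjusted p 0.892 by limma). MONO-MAC-6 had means of 0.142 ± 0.0543 TPM with DMSO and 0.175 ± 0.0343 TPM with A9 (SD, n = 3), under the minimum for a test. The inducible cyclooxygenase PTGS2 was also under the minimum, with means of 0.118 and 0.180 TPM in MOLM-13. In MONO-MAC-6 its means were 0.124 and 0.559 TPM, and its A9 samples lay above its DMSO samples.

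PTGDS (ENSG00000107317, chromosome 9, 136975092 to 136981742, plus strand) encodes the lipocalin-type prostaglandin D2 synthase, known for its abundance in brain and cerebrospinal fluid. In MOLM-13 it had 0.421, 0.364 and 0.705 TPM with DMSO and 0.315, 0.673 and 0.723 TPM with A9, below the minimum for a test. MONO-MAC-6 held 295, 278 and 265 TPM with DMSO and 461, 546 and 514 TPM with A9. Every A9 sample was above every DMSO sample there. PTGDS rose from 279 ± 14.8 to 507 ± 43.0 TPM (SD, n = 3), and its log2 fold change was 0.86 (SE 0.091, adjusted p 0.00713 by limma). With median-ratio scaling the change was 0.70 and was not called (adjusted p 0.0859 by limma). It was also not called without A9 sample 2 (adjusted p 0.0643 by limma) or without A9 sample 3 (adjusted p 0.0744 by limma).

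The effect on PTGDS was higher in MONO-MAC-6 by 0.79 (adjusted p 0.0439 by limma). This call was lost with scaling (adjusted p 0.206 by limma), with a pseudocount of 0.1 (0.365) and with no minimum level (0.0724). Of the 12 fits that each left out 1 sample, 1 kept it, the fit without MONO-MAC-6 DMSO sample 1 (adjusted p 0.0406 by limma), and over the 12 the adjusted p reached 0.138.

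Within PTGDS, the coding transcript PTGDS-202 held 78.2% of the TPM in MONO-MAC-6 with DMSO and 80.9% with A9. It stood at 218 ± 16.0 and 410.0 ± 36.9 TPM (SD, n = 3). Transcripts annotated as retained introns had 41.8 and 65.2 TPM, so both kinds were higher with A9. PTGDS shares 634 exon bases with AL807752.7 on the same strand, which had at most 0.148 TPM as a group mean.

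HPGDS (ENSG00000163106, chromosome 4, 94298535 to 94342876, minus strand), the haematopoietic prostaglandin D2 synthase of mast cells and some lymphocytes, was listed at 0 in all samples but 2. Those were DMSO samples of MONO-MAC-6 with 0.123 and 0.0791 TPM. The prostaglandin D2 synthase transcripts of these cells were thus those of PTGDS, and the enzyme's activity was not measured.

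PTGES (ENSG00000148344, chromosome 9, 129738331 to 129753047, minus strand) encodes the inducible microsomal prostaglandin E synthase. No MOLM-13 sample exceeded 0.0522 TPM. The MONO-MAC-6 samples had 0.283, 0.271 and 0.258 TPM with DMSO and 2.66, 3.99 and 3.34 TPM with A9. The groups were far apart, and the mean with A9 was 12.3 times that with DMSO. The log2 fold change of TPM + 1 was 1.76 (SE 0.14, adjusted p 0.00280 by limma). It was 3.19 with a pseudocount of 0.1 and 1.67 with scaling. The effect was higher than in MOLM-13 by 1.76 (adjusted p 0.000107 by limma). Since PTGES met the minimum level only through this A9 group, both tests are a description of its low and high groups.

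The 2 annotated PTGES transcripts did not move alike. The coding transcript PTGES-201 went from 0.121 ± 0.0640 to 3.09 ± 0.646 TPM (SD, n = 3). The noncoding PTGES-202 had 0.150 TPM with DMSO and 0.233 TPM with A9. The coding share of the gene's TPM was 44.7% with DMSO and 93% with A9. The level with DMSO was so low that this share is only a description.

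TBXAS1 (ENSG00000059377, chromosome 7, 139777051 to 140020325, plus strand) encodes thromboxane A synthase, found in platelets and macrophages. Its MOLM-13 samples had 9.04, 8.26 and 7.83 TPM with DMSO and 10.4, 11.1 and 8.55 TPM with A9, a log2 fold change of 0.23 (adjusted p 0.777 by limma). The groups overlapped there. MONO-MAC-6 samples had 4.84, 3.95 and 5.25 TPM with DMSO and 8.16, 6.69 and 9.41 TPM with A9. The groups did not overlap, and the log2 fold change of 0.67 (SE 0.17, adjusted p 0.0940 by limma) missed the threshold. Without DMSO sample 1 it was called, at 0.70 (adjusted p 0.0145 by limma). With scaling and all samples it was 0.53 (adjusted p 0.164 by limma) and was not called.

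**Figure D3:**
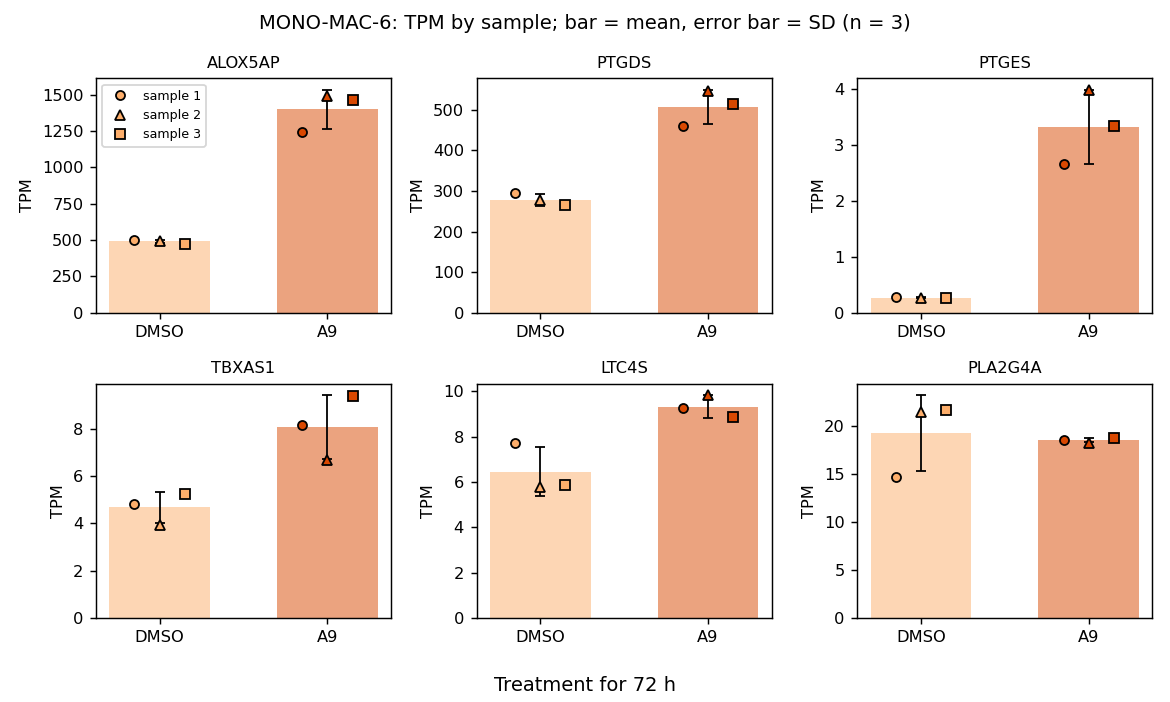
TPM of 6 genes in MONO-MAC-6 with DMSO and A9 for 72 h, with a linear axis from 0, bars for the mean, error bars for the SD and points for the 3 samples. The A9 samples lie above the DMSO samples in 5 of the panels, and those of PLA2G4A overlap.

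The lines expressed different TBXAS1 transcripts. In MOLM-13 with DMSO, protein coding transcripts held 69.5% of the gene's TPM, with TBXAS1-208 alone at 51.1%. In MONO-MAC-6 with DMSO they held 20.7%, and processed transcripts, which have no annotated reading frame, held 67.6%. The most abundant of these, TBXAS1-217, starts at position 139778256, and TBXAS1-208 at position 139829224, far downstream. TBXAS1 summed over protein coding transcripts was 5.83 TPM in MOLM-13 and 0.969 TPM in MONO-MAC-6 with DMSO, a wider gap than the 8.38 and 4.68 TPM of the gene sums. With A9 in MONO-MAC-6 the coding samples had 1.97, 2.14 and 1.99 TPM, against 0.723, 1.07 and 1.12 TPM with DMSO, again with no overlap. The short transcript TBXAS1-214 ran from 0 to 2.95 TPM among the A9 samples, so part of the gene sum rests on a transcript that was listed at 0 in a sample.

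**Figure D4:**
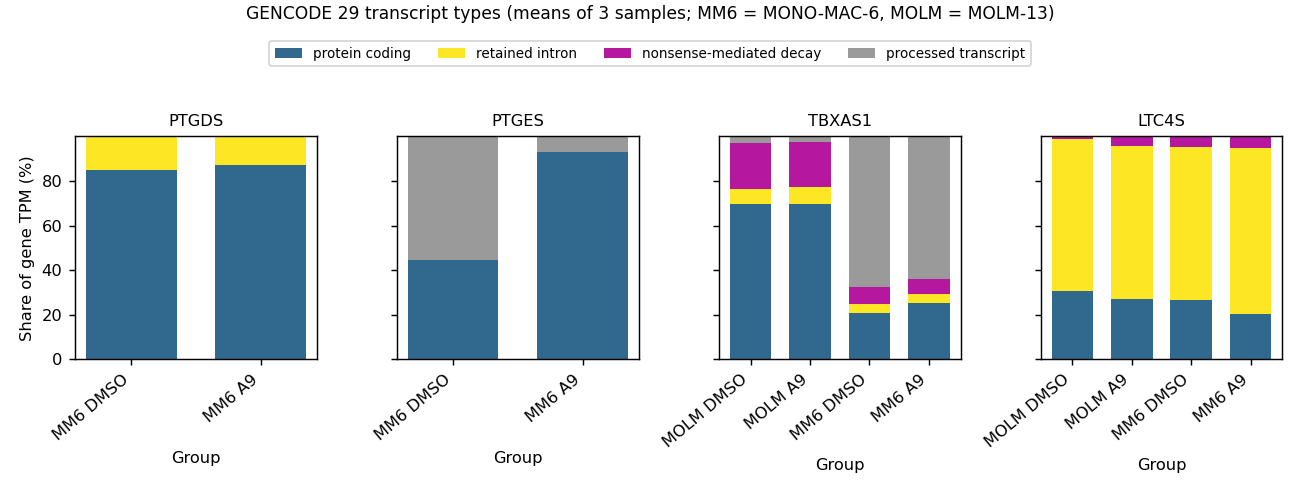
Share of each gene's TPM by GENCODE transcript type, on an axis from 0 to 100%, as means of 3 samples per group. TBXAS1 is mostly protein coding in MOLM-13 and mostly processed transcript in MONO-MAC-6, and LTC4S is mostly retained intron in both lines.

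ALOX5 (ENSG00000012779, chromosome 10, 45374176 to 45446119, plus strand) encodes 5-lipoxygenase, the enzyme that ALOX5AP serves. No MOLM-13 sample exceeded 0.0485 TPM. The values in MONO-MAC-6 were 0.0169, 0.0673 and 0.0297 TPM with DMSO and 0.418, 1.14 and 0.452 TPM with A9, so only A9 sample 2 exceeded 1 TPM. The A9 samples lay above the DMSO samples, but the group mean of 0.671 TPM was under the minimum for a test. With no minimum level the log2 fold change was 0.66 (adjusted p 0.183 by limma). Protein coding transcripts held 32.6% of the ALOX5 TPM with A9.

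ALOX5AP (ENSG00000132965, chromosome 13, 30713478 to 30764426, plus strand) encodes the membrane protein that presents arachidonic acid to 5-lipoxygenase. In MOLM-13 it had 2.80, 2.88 and 3.57 TPM with DMSO and 3.14, 3.94 and 3.13 TPM with A9. The groups overlapped, with a log2 fold change of 0.11 (SE 0.14, adjusted p 0.878 by limma). MONO-MAC-6 had 499, 497 and 475 TPM with DMSO and 1242, 1489.7 and 1466 TPM with A9, and every A9 sample lay above every DMSO sample. ALOX5AP rose there from 490.3 ± 13.0 to 1399 ± 137 TPM (SD, n = 3), with a ratio of means of 2.85 and a log2 fold change of 1.51 (SE 0.095, adjusted p 0.00136 by limma).

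With scaling the ALOX5AP change was 1.35 (adjusted p 0.0123 by limma), and it was called in all 7 alternative fits with all samples and in all 6 that left out 1. The effect was higher than in MOLM-13 by 1.40 (adjusted p 0.000551 by limma), called in all 7 alternatives and in all 12 left-out fits of the difference. At the level of transcripts, with DMSO, MONO-MAC-6 thus held ALOX5AP at 475 to 499 TPM and ALOX5 at 0.0169 to 0.0673 TPM.

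LTA4H (ENSG00000111144, chromosome 12, 96000828 to 96043520, minus strand), which makes leukotriene B4, had overlapping levels in all 4 groups. It had 41.8, 42.8 and 38.4 TPM with DMSO and 41.5, 41.9 and 38.1 TPM with A9 in MOLM-13. MONO-MAC-6 had 35.2, 45.5 and 44.3 TPM with DMSO and 42.5, 45.6 and 44.0 TPM with A9. The groups overlapped in both lines, with log2 fold changes of -0.016 (SE 0.079, adjusted p 0.969 by limma) and 0.086 (SE 0.12, adjusted p 0.660 by limma). With scaling these were 0.031 and -0.072, so neither has a direction that holds.

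LTC4S (ENSG00000213316, chromosome 5, 179793980 to 179796647, plus strand), which joins glutathione to leukotriene A4, had 1.69, 2.14 and 2.30 TPM with DMSO and 1.57, 1.87 and 2.55 TPM with A9 in MOLM-13. The groups overlapped there (log2 fold change -0.030, adjusted p 0.970 by limma). In the other line the samples had 7.72, 5.79 and 5.88 TPM with DMSO and 9.27, 9.86 and 8.87 TPM with A9. The groups did not overlap, and the log2 fold change of 0.48 (SE 0.14, adjusted p 0.143 by limma) missed the threshold. Without DMSO sample 1, the highest of its group, the change was 0.59 and was called (adjusted p 0.00158 by limma). With scaling and all samples the change was 0.33 (adjusted p 0.360 by limma) and was not called.

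Most LTC4S transcripts were not coding ones. Those annotated as retained introns held 68.7% of the gene's TPM in MONO-MAC-6 with DMSO and 74.0% with A9. LTC4S protein coding transcripts had 1.93, 1.57 and 1.67 TPM with DMSO and 1.58, 2.22 and 1.95 TPM with A9, which overlapped. The higher gene sum with A9 lay mostly in the retained-intron transcripts, at means of 4.44 and 6.91 TPM.

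Another 54 genes of the pathway, listed by function, were examined in the same fits. In MOLM-13, 26 were tested and 0 were called by limma, against 0.0862% of all genes called higher and 0.0345% called lower. An unadjusted p under 0.05 was found for 6 of the 26 and for 915 of the 11596 genes, and their median log2 fold change was -0.028 against -0.046 for all genes. In MONO-MAC-6, 32 were tested, 1 was called higher and 1 lower, near the 2.51% and 0.855% of all genes, and 10 had an unadjusted p under 0.05, as did 2631 of the 12869 genes. Their median was 0.18 against 0.16 for all genes. In the test of the difference, 33 were tested, 2 were higher in MONO-MAC-6 and 1 was lower, against 1.92% and 1.07% of all genes.

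Of the prostanoid synthases in that list, AKR1C3, which reduces prostaglandin D2 to a prostaglandin F2, rose in MONO-MAC-6 from 3.72 ± 0.511 to 8.28 ± 1.49 TPM (SD, n = 3). Its log2 fold change was 0.97 (SE 0.17, adjusted p 0.0367 by limma), its A9 samples were all above its DMSO samples, and its MOLM-13 samples had means of 0.0624 and 0.157 TPM. With scaling it was not called (adjusted p 0.0766 by limma), and of the 6 fits that left out 1 sample, 1 called it, the fit without DMSO sample 1 (adjusted p 0.00302 by limma). AKR1C3 has close relatives in sequence, with which it can share reads.

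By the mean over the 4 groups, the highest synthases of the list were PTGES3, a chaperone partner also known as cytosolic prostaglandin E synthase, and CBR1, a carbonyl reductase that acts on prostaglandin E2. PTGES3 had 474 ± 17.7 TPM (SD, n = 3) in MOLM-13 and 452 ± 32.5 TPM (SD, n = 3) for MONO-MAC-6 with DMSO, and did not pass the threshold with A9 in either line. CBR1 had 54.2 ± 1.05 TPM (SD, n = 3) in MOLM-13 and 283 ± 12.9 TPM (SD, n = 3) for MONO-MAC-6 with DMSO. In MOLM-13 alone, PTGES2, another prostaglandin E synthase, was above CBR1, at 64.4 ± 1.66 TPM (SD, n = 3) with DMSO. The log2 fold changes of CBR1 with A9 were 0.083 (adjusted p 0.852 by limma) and -0.23 (adjusted p 0.174 by limma).

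Among 14 receptors, TBXA2R, the receptor for thromboxane, fell in MONO-MAC-6 from 3.06 ± 0.421 to 1.33 ± 0.167 TPM (SD, n = 3), with a log2 fold change of -0.80 (SE 0.13, adjusted p 0.0282 by limma). Its A9 samples were all below its DMSO samples. With scaling the change was -0.90 (adjusted p 0.0132 by limma), and of the 6 fits that left out 1 sample, 1 called it, the fit without DMSO sample 1 (adjusted p 0.00285 by limma). In MOLM-13 the log2 fold change was -0.12 (adjusted p 0.870 by limma). The difference between the lines for TBXA2R was -0.68 and was not called (adjusted p 0.0539 by limma). Without MONO-MAC-6 DMSO sample 1 it was -0.71 and was called (adjusted p 0.0460 by limma). By the mean over the 4 groups, the highest receptors were PTGER4, the EP4 receptor for prostaglandin E2, and LTB4R, the leukotriene B4 receptor. In MOLM-13 alone CYSLTR1, a receptor for cysteinyl leukotrienes, had the highest mean, 9.98 TPM with DMSO. PTGER4 had log2 fold changes of 0.56 in MOLM-13 (adjusted p 0.437 by limma) and 0.81 in MONO-MAC-6 (adjusted p 0.125 by limma). LTB4R had 0.067 (adjusted p 0.896 by limma) and -0.28 (adjusted p 0.318 by limma).

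Of the other lipoxygenase and leukotriene genes, 0 of 6 tested were called in MOLM-13 and 0 of 7 in MONO-MAC-6. The highest was MGST3, a microsomal glutathione transferase, with 156 ± 7.0 TPM (SD, n = 3) in MOLM-13 and 251 ± 35.4 TPM (SD, n = 3) for MONO-MAC-6 with DMSO. COTL1, a partner that binds 5-lipoxygenase, came next by its mean over the groups and had 152 and 43.6 TPM. The difference between the lines was called for COTL1, higher by 0.39 in MONO-MAC-6 (adjusted p 0.0157 by limma), and for MGST2, which can also make leukotriene C4, lower by -0.41 (adjusted p 0.0383 by limma). Both differences are unscaled and from the main fit alone, in which the median difference of all genes was 0.20. The effects on COTL1 and MGST2 within each line were not called. COTL1 had -0.14 in MOLM-13 (adjusted p 0.522 by limma) and 0.24 in MONO-MAC-6 (adjusted p 0.158 by limma). MGST2 had 0.25 (adjusted p 0.279 by limma) and -0.16 (adjusted p 0.313 by limma).

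Of the phospholipases and arachidonate handling genes, 0 of 7 were called in either line. LPCAT3, which places arachidonic acid into phospholipids, had 34.4 ± 4.47 TPM (SD, n = 3) in MOLM-13 and 18.2 ± 5.70 TPM (SD, n = 3) for MONO-MAC-6 with DMSO. Of the inactivation and transport genes, 0 of 4 were called in MOLM-13 and 0 of 5 in MONO-MAC-6. PTGR1, which inactivates prostaglandins and leukotriene B4, had a mean of 0.648 TPM in MOLM-13 and 51.8 TPM in MONO-MAC-6 with DMSO. Its log2 fold changes were 0.45 (adjusted p 0.258 by limma) and 0.38 (adjusted p 0.0695 by limma). All A9 samples were above the DMSO samples in both lines, as for 8.59% (MOLM-13) and 27.2% (MONO-MAC-6) of all genes. PTGR1 met the minimum level in MOLM-13 only through its A9 group, with a mean of 1.25 TPM, so it had to differ there.

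Some markers of myeloid cells were also higher with A9. The summed TPM of the 8 monocytic myeloid genes in MONO-MAC-6 was 3219 to 3783 with DMSO and 7877 to 8201 with A9, most of it LYZ, the lysozyme gene. In MOLM-13, where 0 members were called, the sums were 259 to 282 and 469 to 503. Of the 7 tested in MONO-MAC-6, 4 were called higher (LYZ, CD14, CD68 and ANPEP), and of the 6 tested in MOLM-13, LYZ alone was. CD14 had a log2 fold change of 1.77 in MONO-MAC-6 (adjusted p 0.00256 by limma) and CD68, a lysosomal protein of macrophages, one of 1.72 (adjusted p 0.00538 by limma). CD33, FCGR1A and ITGAM did not pass there, with 0.17 (adjusted p 0.348 by limma), 0.25 (0.323) and 0.020 (0.945). The 4 granulocyte precursor genes summed to 3558 to 4558 TPM with DMSO and 4589 to 4888 TPM with A9 in MONO-MAC-6, and to 1074 to 1426 and 2184 to 2337 TPM in MOLM-13. Of these 4, 0 were called by limma in either line, with 2 at an unadjusted p under 0.05 in each (ELANE and PRTN3), and in MONO-MAC-6 MPO and AZU1 had log2 fold changes of -0.40 and -0.22. Their part in the changes of PTGDS, PTGES and ALOX5AP was not tested.

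Mast cells are a known source of prostaglandin D2 and leukotriene C4, so their markers were examined too. The 5 mast cell genes summed to 75.0 to 97.9 TPM with DMSO and 207 to 221 TPM with A9 in MONO-MAC-6, and to 0.279 to 0.523 TPM over both groups of MOLM-13. The tryptase genes carried these sums: TPSB2 had a log2 fold change of 1.35 (adjusted p 0.00306 by limma) and TPSAB1 one of 1.36 (adjusted p 0.00655 by limma). They are near-identical copies that can share reads. Of the other 3, CPA3 was listed at 0 in every library, HDC was at most 0.108 TPM and MS4A2 at most 1.03 TPM in any sample.

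The genes most like PTGDS were found by Pearson r of log2(TPM + 1), as a description. Over the 6 MONO-MAC-6 samples, which fall into the DMSO and the A9 group, the 5 with the highest r of 9284 genes were HSD17B14, MGST1, RAB13, TYROBP and CCDC88B, with r from 0.997 to 0.999. ALOX5AP came at rank 14, LTC4S at rank 375, TBXAS1 at rank 672, LTA4H at rank 4749 and PLA2G4A at rank 6831. Over all 12 samples, where the lines form separate clusters that set the value, the 5 were AC010507.1, TMEM176B, ORM2, ALDH1A1 and APOE. APOE, the apolipoprotein E gene, had means of 0.200 and 0.206 TPM in MOLM-13 and 190.3 and 438 TPM in MONO-MAC-6 with DMSO and A9.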

How the data were processed

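RNA was measured by poly(A) RNA sequencing in 36 libraries. Per the submitters' processing notes, the authors used kallisto, limma and GRCh38; versions and settings are not given in the sources used here. The deposited values are TPM per Ensembl transcript. Transcripts were matched to GENCODE 29 (78.5% of 207175, holding 89.9% to 91.4% of TPM) and summed by gene symbol. Libraries with the same first number were averaged, which gave 3 samples per group. The fits used limma 3.58.1 (lmFit, eBayes with trend and robust; R 4.3.3) on log2(TPM + 1) of all genes whose group mean reached 1 TPM in either group, with two-sided p-values adjusted by Benjamini-Hochberg, and tested on simulated data. An exact permutation test of 3 against 3 samples could not reach the threshold. The members and lists were chosen with earlier results of these data known. All members are named. Pathway genes are named if called in a line, and otherwise up to the 2 highest of each role. MGST2, PTGS2, PTGES2, CYSLTR1 and the marker genes were named after their values were seen. Alternatives were a pseudocount of 0.1, no minimum level, other uses of the libraries, a replicate block, median-ratio scaling, removal of the length trend (lowess, span 0.3) and leaving out each sample. Promoters are from RefSeq (GRCh38.p14). Python 3.11.15, pandas 2.3.3 and matplotlib 3.10.9 were used.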

Additional observations from a re-analysis of the deposited data

Results flagged for a closer look

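The response to A9 was called different between MOLM-13 and MONO-MAC-6 for 6 of the 8 members and 33 pathway genes tested. The test was of the difference itself, the limma interaction over 12 samples. Of all 13410 genes, 1.92% were called higher in MONO-MAC-6 and 1.07% lower. It was higher in MONO-MAC-6 for PTGES, by 1.76 on the log2 scale, for ALOX5AP, by 1.40, for AKR1C3, by 0.85 (adjusted p 0.0350 by limma), for PTGDS, by 0.79, and for COTL1, by 0.39. It was lower there for MGST2, by -0.41. The median difference of all genes was 0.20, and for COTL1 and MGST2 the alternative fits are not given. The PTGDS difference was called in 3 of 7 alternatives with all samples and in 1 of 12 fits that left out 1 sample. Of those 3 alternatives, only the fit with the length trend removed kept the 3 samples per group (adjusted p 0.0125 by limma). The AKR1C3 difference was called in 2 of 7 alternatives with all samples and in 2 of 12 fits that left out 1 sample. Those 2 alternatives averaged libraries by second number or took each library as its own sample, which does not keep the 3 samples per group. The AKR1C3 difference was 0.49 with a pseudocount of 0.1 (adjusted p 0.426 by limma). PTGES, PTGDS and AKR1C3 were under the minimum level in MOLM-13, where a differing response cannot be told apart from a lack of expression. The dose differed between the lines as well.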

How the results depend on the processing

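ALOX5AP was called in every fit run of MONO-MAC-6 and of the difference between the lines. PTGES was too, but it met the minimum level only through the MONO-MAC-6 A9 group, so its calls say nothing about stability. The number of members called in MOLM-13 was 0 of 6 tested. It became 2 with libraries averaged by second number, which mixes samples. It became 1 with each library as its own sample and 1 with the length trend removed. These settings called 5437, 1742 and 175 of all 11596 genes there. In MONO-MAC-6 the number, 3 of 7 tested, became 6 and 5 under the first 2 of these settings. They called 8701 and 5582 of 12869 genes. The number of members ran from 2 to 6 over the fits that left out 1 sample. It was 6 without DMSO sample 1, where 3202 of 12924 genes were called. For the difference the number, 3 of 8 tested, became 7 and 6, with 8502 and 5616 of 13410 genes called. The replicate block left 0, 2 and 2 members called, with 87, 102 and 207 calls over all genes. PTGDS lost its call with it (adjusted p 0.0636 by limma in MONO-MAC-6 and 0.0911 for the difference), as did AKR1C3 (0.150) and TBXA2R (0.129). Same-numbered DMSO and A9 samples deviated together with r of 0.388, -0.078 and 0.690 in MOLM-13 and -0.036, 0.10 and -0.110 in MONO-MAC-6. Differently numbered ones had r from -0.699 to 0.647 in MOLM-13 and from -0.149 to 0.150 in MONO-MAC-6. The numbers were therefore not taken to pair samples.

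Small changes that were not called reversed. In MOLM-13, LTA4H became 0.031 after scaling and 0.030 without the length trend, and LTC4S 0.0034 after scaling. In MONO-MAC-6, LTA4H became -0.072 and -0.056. For the difference, LTA4H became -0.10 and -0.076, and PTGS1 became -0.15 with the length trend removed. Over the fits that left out 1 sample, the MOLM-13 changes ran from -0.22 to 0.046 for PTGS1, from -0.061 to 0.026 for LTA4H and from -0.16 to 0.074 for LTC4S. In MONO-MAC-6 they ran from -0.21 to 0.058 for PLA2G4A and from -0.028 to 0.15 for LTA4H. The differences ran from -0.0041 to 0.26 for PTGS1 and from -0.012 to 0.17 for LTA4H. The cause was not tested. Of the values of single genes under an alternative, 307 kept their direction and side of the threshold, 24 gained a call, 49 lost one and 18 reversed.

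Over all genes, 14 calls in MOLM-13 became 5437 and 1742 under the first 2 settings, 4 with no minimum level, 87 with the replicate block, 48 after scaling, 175 without the length trend, and 2 to 8 with 1 sample left out. The 433 in MONO-MAC-6 became 8701, 5582, 254, 102, 563 and 1195, and 59 to 3202 with 1 sample left out, the highest without DMSO sample 1. The 401 of the difference became 8502, 5616, 384, 207, 522 and 781, and 197 to 549. Depth is unknown, so values near 0 carry an error that cannot be given.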
